A study of Mus musculus with 18 samples.

Results

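The Q module of respiratory complex I was followed through its transcripts for Ndufa5, Ndufs3, Ndufs7 and Ndufs8, 4 of the 54532 mouse genes in the deposited expression table, taken by name. All 4 exceeded the minimum level used for testing, a mean of at least 1 FPKM over the 18 libraries, which 11084 genes met. FPKM divides the sequenced fragments of a gene by the length of its exons and by a total for the library, so levels can be set side by side between genes. Here that total differed from the number of fragments recovered per library. The question was whether the other 3 genes, here called the partners, moved when Ndufa5, the gene targeted in the study, was lowered. The cells were KPCA.B, a mouse line that the labels call high-grade serous ovarian cancer. They carried the control hairpin (shControl, genotype labelled wild type for Ndufa5) or either of 2 short hairpin RNAs against Ndufa5, shNdufa5_1 (labelled knockdown 1) and shNdufa5_2 (labelled knockdown 2). Each was grown in an even mix of fresh high-glucose DMEM with conditioned medium, with 4% heat-inactivated serum, the growth factor EGF (2 ng/mL) and the supplement ITS-G. PCM, the proliferative medium, came from dividing cells given the control treatment DMF, and SCM, the senescent medium, from cells made senescent with the platinum drug cisplatin. Polyadenylated RNA was sequenced from 3 libraries in each of the 6 groups. The labels do not say whether the hairpin lines were clones or pools, which promoter drove the hairpins, or whether separate cultures stand behind the 3 libraries of each group. The p-values therefore speak only to the spread among these libraries, and that spread may be technical.

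Complex I takes electrons from NADH and passes them to ubiquinone while it pumps protons across the mitochondrial inner membrane. Its matrix arm has an N module, which oxidises NADH, and below it the Q module, which reduces ubiquinone, and the Q module stands on the membrane arm, which pumps. During assembly the Q module is built early and joins the membrane arm before the N module is added. Ndufs7 holds the last iron-sulfur cluster of the electron chain beside the ubiquinone pocket. Ndufs8 carries the iron-sulfur clusters that feed it, Ndufs3 is a core subunit without a cofactor, and Ndufa5 is a small accessory subunit without a catalytic part.

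The libraries held 13.8 M to 38.9 M fragments, read from the steps of the low FPKM values. The values of the members rest on 104 to 913 fragments for Ndufa5, 1134 to 4504 for Ndufs3, 901 to 3783 for Ndufs7 and 1324 to 7991 for Ndufs8. Of 9 ovarian carcinoma and epithelial markers 7 reached 1 FPKM in some library (Krt7, Krt8, Krt18, Krt19, Cdh1, Pax8 and Msln), while Epcam stayed under it and Wt1 was at 0 in every library. Cdh1 reached it only with shNdufa5_1 in SCM (1.20 to 1.37 FPKM) and was at most 0.893 elsewhere. Their summed level differed by group, at 1048 to 1117 FPKM with shControl in PCM, 1618 to 1727 with shControl in SCM, 1694 to 1735 and 1996 to 2060 with shNdufa5_1, and 1197 to 1219 and 1198 to 1269 in the libraries labelled shNdufa5_2 (PCM first). Of 7 fibroblast markers 3 reached 1 FPKM (Pdgfra, Dcn and Col1a1) and Thy1 was at 0, with sums of 2.35 to 7.97 FPKM. No marker of leukocytes (of 7) or of endothelium (of 5) reached 1 FPKM, with sums of at most 0.341 and 0.175. Gm23935, a short transcript model, took 5.13 to 27.1% of a library's FPKM sum. Its share was 5.13 to 8.75% with shControl in PCM and 16.3 to 21.8% in SCM. The FPKM sums of these libraries were 290242.1 to 303782.1 in PCM and 437858.8 to 484520.5 in SCM. Scaling each library to an equal FPKM sum, one of the alternatives tried, thus moves every gene between those groups. How much of this shift came from Gm23935 was not tested. The part of the markers and of Gm23935 in the results was not tested. In bulk RNA fewer cells of a type and less RNA per cell cannot be told apart.

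In GRCm38 the gene Ndufa5 (ENSMUSG00000023089) lies at chr6:24518666-24528013 on the minus strand, with 1032 bp of exons in 5 blocks. Ndufs3 (ENSMUSG00000005510) lies at chr2:90894634-90904827 on the minus strand, with 2178 bp in 8 blocks. It shares 88 exonic bp with Kbtbd4 on the opposite strand, a gene at a mean of 2.40 FPKM, and whether fragments were counted by strand is not given in the sources used here. Ndufs7 (ENSMUSG00000020153) lies at chr10:80249121-80256794 on the plus strand (1718 bp in 7 blocks), and Ndufs8 (ENSMUSG00000059734) at chr19:3908863-3912774 on the minus strand (1291 bp in 7 blocks). The 4 genes thus sit on 4 chromosomes.

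The 250 bases before the start sites of the 4 genes were read from RefSeq (GRCm38.p6, window found for 4 of 4 genes). The windows of Ndufa5 and Ndufs7 lie within the gene as GENCODE annotates it, and that of Ndufs3 does in part. The sequence before those annotated starts was thus not read, or read only in part. All windows were searched on both strands for 7 short motifs. Of factors known at genes of respiration these were GCATGCGC for NRF1, the motif CCGGAAG for ETS factors such as GABPA, the motif AAGGTCA for the estrogen-related receptors (ERR) and the motif ATGGCGG for YY1. General promoter motifs were CCAAT, bound by NF-Y, then GGGCGG, bound by SP factors, and the TATA box as TATAAA. Ndufs8 is shown whole, at chr19:3912775-3913024 on the minus strand. Of Ndufs3 and Ndufs7 only the 30 bases around the matches are shown, at chr2:90904738-90904767 on the minus strand and chr10:80249338-80249367 on the plus strand, since GENCODE annotates 188 and 143 bases of their windows as untranslated region. Capitals mark the matches, 5′ to 3′ on the strand of the gene.
Ndufs8: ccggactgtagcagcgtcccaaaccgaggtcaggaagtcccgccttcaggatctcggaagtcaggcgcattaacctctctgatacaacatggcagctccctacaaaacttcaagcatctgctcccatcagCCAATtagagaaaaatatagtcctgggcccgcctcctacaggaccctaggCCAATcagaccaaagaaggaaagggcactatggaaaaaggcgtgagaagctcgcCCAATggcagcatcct
Ndufs3: cttcCCGCCCcgcgtCCGCCCGGAAGaaga
Ndufs7: cgcgaccacaggTATAAAgcgggtcagaac

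No motif was found in 2 of the partners at once. Only the window of Ndufs8 lies wholly before its annotated gene, so shared promoter motifs could not be judged. Ndufs8 held 3 NF-Y matches, which start 120, 70 and 16 bases before the start site, and 33.9% of 32851 mouse promoter windows of the same length hold that motif. Ndufs3 held an ETS match from base 27 to base 21 before the start (6.91% of windows) and 2 SP matches on the other strand (32.7% of windows), one of which overlaps the ETS match. Ndufs7 held a TATA box match at bases 99 to 94 (12.4% of windows). The window of Ndufa5, all of it within an annotated untranslated region and so not shown, held none of the 7. The NRF1, ERR and YY1 motifs, which 2.26%, 4.08% and 2.21% of windows hold, were in none of the 4. The windows had 50.8% (Ndufa5), 59.2% (Ndufs3), 54.4% (Ndufs7) and 53.2% (Ndufs8) G and C, against a median of 52.4% over all windows.

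Ndufa5 was the least abundant of the 4 and was far lower with shNdufa5_1 than in the other libraries. In PCM the shControl replicates 1 to 3 read 15.2, 19.0 and 22.1 FPKM, those with shNdufa5_1 read 6.23, 6.39 and 6.85, and those labelled shNdufa5_2 read 18.7, 17.2 and 16.8. In SCM the replicates read 22.3, 26.2 and 20.9 FPKM with shControl, 6.46, 6.78 and 6.23 with shNdufa5_1, and 14.6, 16.1 and 20.2 when labelled shNdufa5_2. The 6 shNdufa5_1 libraries were thus all below the other 12, while those labelled shNdufa5_2 overlapped shControl in PCM and lay just under it in SCM. The order of the group means was shNdufa5_1 in SCM and in PCM, which overlapped, then the libraries labelled shNdufa5_2 in SCM and PCM and shControl in PCM and SCM, each of which overlapped the next. Any direction drawn from the libraries labelled shNdufa5_2 carries the limit that the targeted gene kept 93.4% of its control level in PCM and 73.4% in SCM.

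Ndufs3 was higher in SCM than in PCM with shControl and stayed near its PCM level with shNdufa5_1. It read 34.4, 37.0 and 33.3 FPKM with shControl in PCM and 58.1, 61.3 and 56.4 in SCM. With shNdufa5_1 it read 34.3, 35.9 and 31.7 FPKM in PCM and 37.4, 36.7 and 38.8 in SCM. With the label shNdufa5_2 it read 45.0, 43.4 and 45.1 FPKM in PCM and 46.8, 44.7 and 47.6 in SCM. Its 3 shControl libraries in SCM were above all 15 others, and the 6 libraries labelled shNdufa5_2 lay between them and the rest.

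Ndufs7, the subunit beside the ubiquinone pocket, followed the same order. It read 35.4, 41.8 and 37.4 FPKM with shControl in PCM and 60.7, 65.3 and 62.9 in SCM. With shNdufa5_1 it read 33.4, 38.2 and 31.98 FPKM in PCM and 41.5, 40.6 and 38.0 in SCM. Labelled shNdufa5_2, the libraries read 49.3, 44.4 and 44.9 FPKM in PCM and 46.8, 46.3 and 50.7 in SCM. Both groups labelled shNdufa5_2 overlapped each other and were above every shNdufa5_1 library and below every shControl library in SCM.

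Ndufs8, which carries the clusters ahead of the last one, was the most abundant member. It read 99.8, 96.0 and 96.7 FPKM with shControl in PCM and 193, 184 and 188 in SCM. With shNdufa5_1 it read 76.1, 65.1 and 77.4 FPKM in PCM and 93.0, 101 and 94.1 in SCM. The label shNdufa5_2 went with 121, 114 and 121 FPKM in PCM and 135, 134 and 137 in SCM. From lowest to highest the groups were shNdufa5_1 in PCM, shNdufa5_1 in SCM, shControl in PCM, those labelled shNdufa5_2 in PCM and in SCM, and shControl in SCM. Of these neighbours only shNdufa5_1 in SCM and shControl in PCM overlapped.

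**Figure D1:**
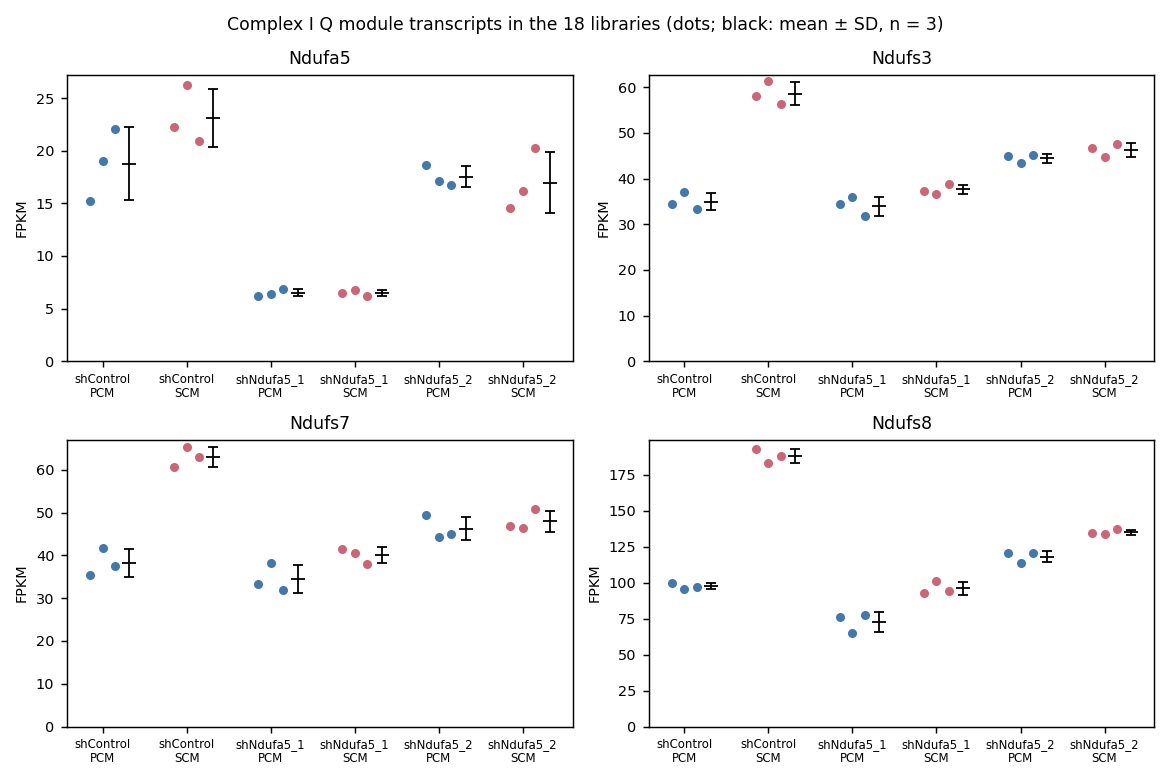
FPKM (vertical axes, from 0) of the 4 Q module transcripts in the 18 libraries, 1 dot per library in blue for PCM and red for SCM, with the mean ± SD of 3 libraries in black. Ndufa5 sits near 6.49 with shNdufa5_1 in both media, while each partner is highest with shControl in SCM.

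Each difference below is on the log2(FPKM + 1) scale, which understates changes of low genes, with its standard error (SE) and an adjusted p from limma fitted to all genes tested. Called means that this adjusted p was below 0.05. Exact two-sided permutation tests of the 36 direct comparisons of a member between a pair of groups gave p = 0.1 in 27, the smallest that 3 against 3 libraries allow, and in the same 27 the groups did not overlap. After Benjamini-Hochberg adjustment over the 36 these came to 0.133, so the permutation test could not pass the threshold by design.

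With shNdufa5_1 in PCM, where Ndufa5 was lower, Ndufs3 and Ndufs7 had no called change and Ndufs8 was lower. Whether differences between a hairpin and shControl came from lower Ndufa5 or from other differences between the lines was not tested. Ndufa5 was at 6.49 ± 0.324 FPKM against 18.8 ± 3.45 with shControl (SD, n = 3), or 34.6%. Of the 4 members 2 were called, both lower, where 25.6% of all genes tested were called higher and 27.1% lower (52.7% in all). The groups did not overlap in the same 2, and in 59.8% of all genes. Ndufa5 fell by 1.39 on the log2 scale (SE 0.12, limma adjusted p = 1.47e-07). Ndufs8 was at 74.7% of shControl (72.9 ± 6.79 against 97.5 ± 2.03 FPKM, n = 3), a log2 difference of -0.42 (SE 0.05, limma adjusted p = 7.57e-06). Ndufs3 was at 97.3%, with a difference of -0.04 (95% interval -0.14 to 0.07, limma adjusted p = 0.532). Ndufs7 was at 90.5%, with a difference of -0.14 (-0.29 to 0.01, adjusted p = 0.0995). Falls as large as that of Ndufa5 lie outside both intervals. Ndufs7 was called lower without shControl replicate 1 (-0.19, limma adjusted p = 0.0445) and without shNdufa5_1 replicate 2 (-0.21, adjusted p = 0.0157). With libraries scaled to equal FPKM sums Ndufs7 (-0.27, limma adjusted p = 0.00145) and Ndufs3 (-0.17, adjusted p = 0.0456) were both called lower. On that scale the median of all genes moved from -0.01 to -0.12, with 3673 of 11084 called lower and 1403 higher. Relative to that median Ndufs7 stood at -0.15 and Ndufs3 at -0.05. The sign of Ndufs3 was not fixed, at 0.10 with each library's trend with GC content and length removed, 0.00 without shControl replicate 2 and 0.01 without shNdufa5_1 replicate 3.

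In SCM all 3 partners fell with shNdufa5_1 along with Ndufa5. The members were called lower in 4 of 4 cases, where 28.7% of all genes tested were called higher and 31.1% lower (59.8% in all). The groups did not overlap in 4 of 4, and in 65.1% of all genes. Ndufa5 was at 28% of shControl (6.49 ± 0.275 against 23.1 ± 2.77 FPKM, n = 3), a log2 difference of -1.68 (SE 0.12, limma adjusted p = 9.8e-09). Ndufs3 was at 64.2% (37.6 ± 1.06 against 58.6 ± 2.49 FPKM, n = 3), a difference of -0.63 (SE 0.05, limma adjusted p = 2.39e-08). Ndufs7 was at 63.6% (40.0 ± 1.84 against 63.0 ± 2.29 FPKM, n = 3), a difference of -0.64 (SE 0.07, limma adjusted p = 1.01e-06). Ndufs8 was at 51.1% (96.1 ± 4.49 against 188 ± 4.71 FPKM, n = 3), a difference of -0.96 (SE 0.05, limma adjusted p = 4.89e-10). Each partner lost a smaller share than Ndufa5, and the 95% interval of Ndufa5 (-1.94 to -1.43) did not meet that of Ndufs8 (-1.08 to -0.85), the partner with the largest fall. With libraries scaled to equal FPKM sums, where the median of all genes moved from 0.00 to 0.34, the falls of Ndufs3, Ndufs7 and Ndufs8 were -0.21, -0.23 and -0.54 and were still called.

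In the libraries labelled shNdufa5_2 the partners were higher than with shControl in PCM, where Ndufa5 was not called, and lower in SCM, where Ndufa5 was called lower too. Both hairpins are compared with the same shControl libraries. In PCM 3 of 4 members were called higher, where 19.3% of all genes tested were called higher and 16.3% lower (35.6% in all). The groups did not overlap in the same 3, and in 49.8% of all genes. Ndufs3 was at 127% of shControl (log2 difference 0.34, SE 0.05, limma adjusted p = 6.94e-05), Ndufs7 at 121% (0.27, adjusted p = 0.00675) and Ndufs8 at 121% (0.28, adjusted p = 0.000857). Ndufa5 itself differed by -0.08 (95% interval -0.34 to 0.18, limma adjusted p = 0.647). In SCM 4 of 4 members were called lower, where 13.9% of all genes tested were called higher and 20% lower (33.9% in all). The groups did not overlap in 4 of 4, and in 43.2% of all genes. Ndufa5 was at 73.4% (16.98 ± 2.91 against 23.1 ± 2.77 FPKM, n = 3, log2 difference -0.43, limma adjusted p = 0.0125). Ndufs3 was at 79.1% (-0.33, adjusted p = 0.000109), Ndufs7 at 76.2% (-0.39, adjusted p = 0.000623) and Ndufs8 at 71.8% (-0.47, adjusted p = 1.08e-05), shares near that of Ndufa5 itself. The call for Ndufa5 was lost without shControl replicate 2 (-0.34, adjusted p = 0.0656) or replicate 1 of the libraries labelled shNdufa5_2 (-0.33, adjusted p = 0.0634), and in PCM its sign turned without shControl replicate 3 (0.04). The rises of Ndufs7 and Ndufs8 in PCM lost their call with quantile normalization (0.18 and 0.13) and with the GC and length trend removed (0.09 and 0.09). Scaled to equal FPKM sums, which moved the median of all genes to -0.30 in PCM and 0.23 in SCM, the partners' rises in PCM became -0.01, -0.08 and -0.08 (Ndufs3, Ndufs7, Ndufs8) and the 4 falls in SCM were no longer called. Relative to that median the partners stood at 0.29, 0.22 and 0.22 in PCM and at -0.27, -0.33 and -0.41 in SCM.

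**Figure D2:**
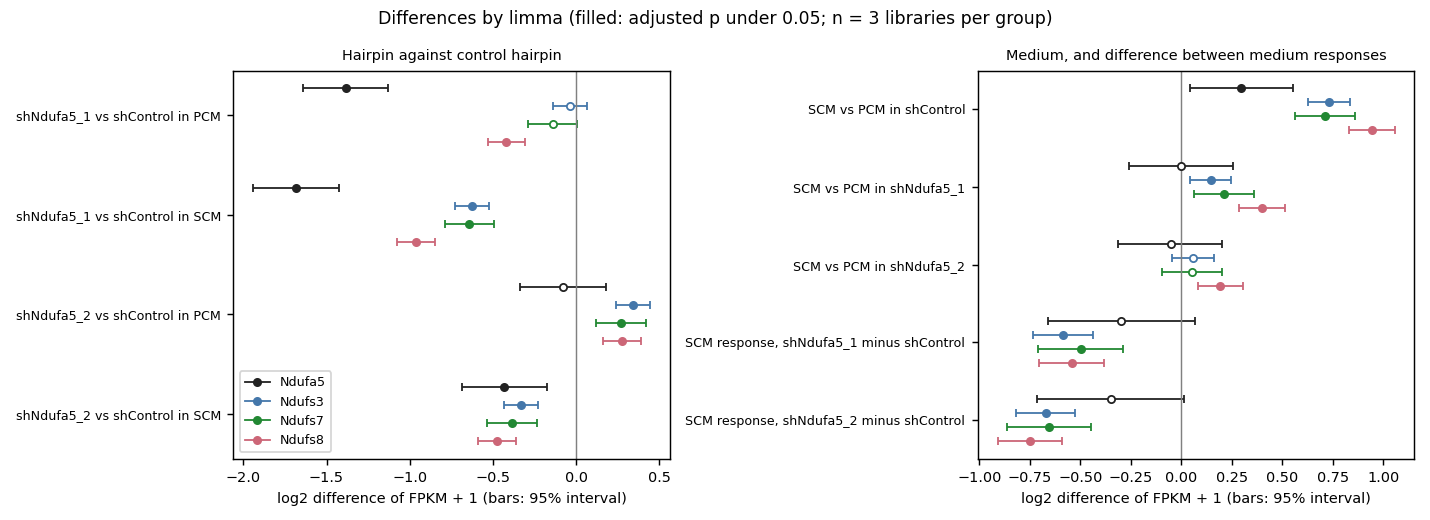
Differences on the log2(FPKM + 1) scale (horizontal axes) with 95% intervals, for each hairpin against shControl (left) and for the media and the difference between media responses (right), 3 libraries per group, filled where the limma adjusted p was under 0.05. With shNdufa5_1 in PCM Ndufa5 lies at -1.39 while Ndufs3 lies at -0.04, and with SCM in shControl the 3 partners lie between 0.71 and 0.94.

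Set against each other, the hairpin lines differed in all 4 members in both media. The libraries labelled shNdufa5_2 were higher than those with shNdufa5_1 in 4 of 4 members in PCM, where 33% of all genes tested were called higher and 29.9% lower (62.9% in all). The groups did not overlap in 4 of 4, and in 65.9% of all genes. Ndufa5 differed by 1.31 (limma adjusted p = 1.57e-07), Ndufs3 by 0.38 (adjusted p = 5.52e-06), Ndufs7 by 0.41 (adjusted p = 9.14e-05) and Ndufs8 by 0.69 (adjusted p = 1.85e-08). In SCM they were again higher in 4 of 4, where 27.3% of all genes tested were called higher and 26.5% lower (53.9% in all). The groups did not overlap in 4 of 4, and in 61.7% of all genes. Here Ndufa5 differed by 1.25 (limma adjusted p = 3.78e-07), Ndufs3 by 0.29 (adjusted p = 0.000102), Ndufs7 by 0.25 (adjusted p = 0.00574) and Ndufs8 by 0.49 (adjusted p = 1.36e-06). The call for Ndufs7 was lost with the GC and length trend removed in both media (0.09 in PCM, 0.10 in SCM) and with equal FPKM sums in SCM (0.13).

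The partners were higher in SCM than in PCM in shControl cells on the deposited scale. All 4 members were called higher in SCM, where 31.7% of all genes tested were called higher and 30.2% lower (61.9% in all). The media did not overlap in the 3 partners, 3 of 4 members, and in 66.1% of all genes. Ndufs8 was at 193% of its PCM level (log2 difference 0.94, SE 0.05, limma adjusted p = 6.43e-10), Ndufs3 at 168% (0.73, SE 0.05, adjusted p = 4.56e-09) and Ndufs7 at 165% (0.71, SE 0.07, adjusted p = 3.58e-07). Ndufa5 was at 123% (0.30, 95% interval 0.04 to 0.55, limma adjusted p = 0.0436, exact permutation p = 0.2), and its groups overlapped. The call for Ndufa5 was lost without shControl replicate 1 (0.16) or 2 (0.31) in PCM and without replicate 1 (0.32) or 2 (0.21) in SCM, and also with equal fragment totals (0.06), quantile normalization (0.195) and the GC and length trend removed (0.07), and with equal FPKM sums it stood at -0.29 and was called lower. On that last scale the median of all genes moved from 0.00 to -0.50, with 7805 of 11084 called lower and 488 higher. Ndufs8 was still called higher there (0.34) while Ndufs3 (0.13) and Ndufs7 (0.11) were not. Above that median Ndufs8, Ndufs3 and Ndufs7 stood at 0.84, 0.63 and 0.61, and Ndufa5 stood above it at 0.21.

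With shNdufa5_1 the same change of medium went with smaller differences. Of the 4 members 3 were called higher, where 22.5% of all genes tested were called higher and 19.8% lower (42.3% in all). The media did not overlap in 2, Ndufs3 and Ndufs8, and in 52.2% of all genes. Ndufs8 differed by 0.40 (limma adjusted p = 3e-05), Ndufs7 by 0.21 (adjusted p = 0.0239) and Ndufs3 by 0.14 (adjusted p = 0.0263), while Ndufa5 differed by 0.00 (95% interval -0.26 to 0.26). With the GC and length trend removed, the values of Ndufs3 and Ndufs7 were 0.00 and 0.00, and both also lost their call with equal FPKM sums (0.09 and 0.155) and equal fragment totals (0.10 and 0.16). Without PCM replicate 3 they were 0.10 and 0.16, not called, and without SCM replicate 1 they were 0.15 and 0.18, not called. The call for Ndufs3 was also lost without SCM replicate 3 (0.12), and that for Ndufs7 without PCM replicate 1 (0.19) or SCM replicate 2 (0.20).

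In the libraries labelled shNdufa5_2 few members were called between the media, and this medium response was not tested against that with shNdufa5_1. Only Ndufs8 of the 4 was called higher (0.19, limma adjusted p = 0.0159), where 11.7% of all genes tested were called higher and 11.1% lower (22.8% in all). It was also the only 1 of the 4 whose media did not overlap, as in 37.8% of all genes. Ndufs3 differed by 0.06 (95% interval -0.04 to 0.16), Ndufs7 by 0.05 (-0.09 to 0.20) and Ndufa5 by -0.05 (-0.31 to 0.20). The Ndufs8 call was lost without PCM replicate 2 (0.16) or SCM replicate 3 (0.18), and with equal FPKM sums (0.23), equal fragment totals (0.13), quantile normalization (0.15) and the GC and length trend removed (0.16).

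The difference between the medium responses was tested in the same fit as an interaction. Against shControl, the SCM response with shNdufa5_1 was lower in 3 of 4 members, where 10.7% of all genes tested were called higher and 15.5% lower (26.2% in all). It was lower by -0.59 for Ndufs3 (SE 0.07, limma adjusted p = 1.56e-05), -0.50 for Ndufs7 (adjusted p = 0.00146) and -0.54 for Ndufs8 (adjusted p = 7.04e-05). For Ndufa5 the difference was -0.30 (95% interval -0.66 to 0.07, adjusted p = 0.22). In the libraries labelled shNdufa5_2 the response was lower in the same 3, where 18.9% of all genes tested were called higher and 24.1% lower (43% in all). The differences were -0.67 for Ndufs3 (limma adjusted p = 2.26e-06), -0.66 for Ndufs7 (adjusted p = 7.98e-05), -0.75 for Ndufs8 (adjusted p = 1.85e-06) and -0.35 for Ndufa5 (-0.72 to 0.01, adjusted p = 0.112). Averaged over both hairpins, the partners' differences were -0.63, -0.58 and -0.65 (Ndufs3, Ndufs7, Ndufs8, called 3 of 3, where 17.2% of all genes tested were called higher, 21.5% lower and 38.6% in all), and that of Ndufa5 was -0.32 (adjusted p = 0.0975). The value for Ndufa5 was called without shControl replicate 3 in PCM (-0.47 for the libraries labelled shNdufa5_2, -0.44 averaged) or without SCM replicate 3 of the libraries labelled shNdufa5_2 (-0.48 and -0.39). With quantile normalization the differences with shNdufa5_1 were -0.26 for Ndufs7 and -0.19 for Ndufs8, and neither was called. With equal FPKM sums, where the median of all genes moved to 0.46 and 0.52, none of the partners' differences was called, and all were between -0.10 and 0.04. Relative to that median the differences for Ndufs3, Ndufs7 and Ndufs8 were -0.50, -0.41 and -0.45 for shNdufa5_1, against -0.55, -0.54 and -0.62 for the label shNdufa5_2.

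The ratio of Ndufa5 to its partners within a library does not change when all its genes are scaled by the same factor. Quantile normalization and the removal of GC and length trends can change it. The ratios here are of deposited values. Per Ndufs3, Ndufa5 stood at 0.539 ± 0.113 with shControl in PCM and 0.394 ± 0.0301 in SCM, at 0.192 ± 0.0209 and 0.173 ± 0.012 with shNdufa5_1, and at 0.394 ± 0.0217 and 0.366 ± 0.0565 in the libraries labelled shNdufa5_2 (PCM first, SD, n = 3 each). The 6 shNdufa5_1 libraries, at most 0.216, were all below the other 12, of which the lowest was 0.312. Per Ndufs7 the shNdufa5_1 means were 0.189 and 0.162, against 0.492 and 0.367 with shControl and 0.380 and 0.353 in those labelled shNdufa5_2. Per Ndufs8 they were 0.0895 and 0.0675, against 0.193 and 0.123, and 0.148 and 0.125. Here too no shNdufa5_1 library reached another group, with a highest value of 0.0982 against a lowest of 0.108 elsewhere.

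Among the partners the ratio of Ndufs3 to Ndufs7 kept a narrow range, with group means of 0.917 to 0.986. Those of Ndufs3 and Ndufs7 to Ndufs8 ranged from 0.312 and 0.335, both with shControl in SCM, to 0.471 and 0.480, both with shNdufa5_1 in PCM. Ndufs8 thus moved further than the other partners between these groups.

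**Figure D3:**
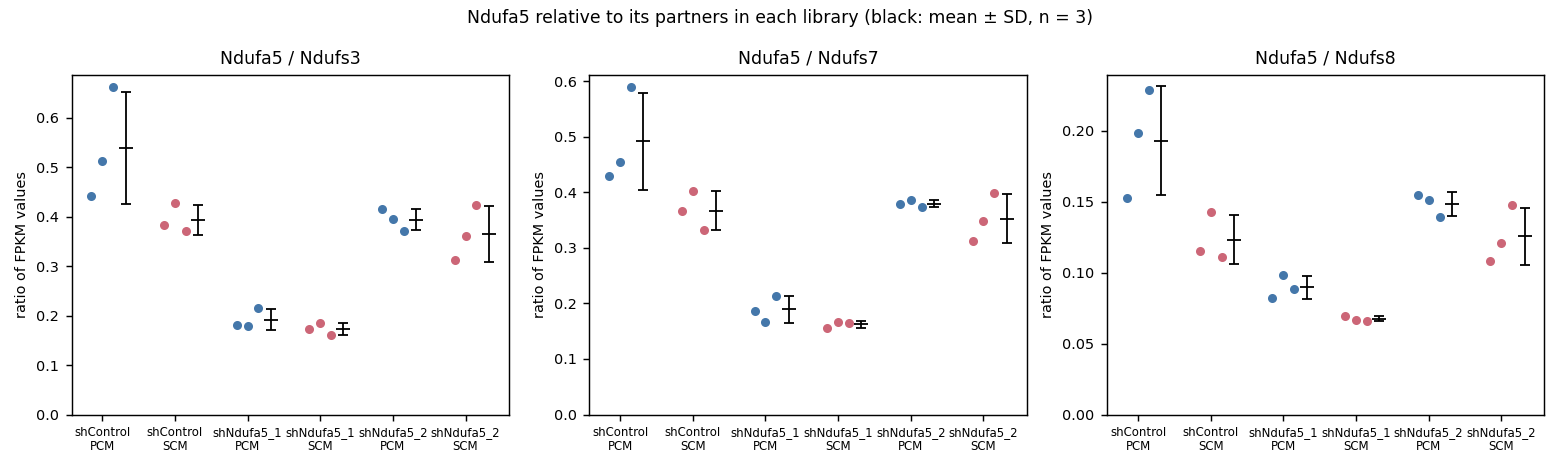
Ratio of the FPKM of Ndufa5 to that of each partner (vertical axes, from 0), 1 dot per library in blue for PCM and red for SCM, with the mean ± SD of 3 libraries in black. The 6 libraries with shNdufa5_1 lie below the other 12 for each partner, as for Ndufs3 with at most 0.216 against at least 0.312.

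The N module and the membrane arm were read beside the members. Of their 30 nuclear-encoded subunits tested, 2 were called higher and 17 lower with shNdufa5_1 in PCM, with a median of -0.27, and 1 higher and 28 lower in SCM, with a median of -0.65. With the label shNdufa5_2 17 were called higher and 1 lower in PCM, with a median of 0.27 (-0.08 with equal FPKM sums, where the median of all genes was -0.30). In SCM none was called higher and 19 lower there, with a median of -0.25 (0.035 with equal FPKM sums, where that of all genes was 0.23). With SCM in shControl 28 rose and 1 fell, with a median of 0.61 (0.03 with equal FPKM sums, where that of all genes was -0.50). On the deposited scale the median of all genes tested was between -0.01 and 0.01 in these 5 comparisons. Equal FPKM sums moved it to -0.12 in PCM and 0.34 in SCM with shNdufa5_1. Of all genes, 25.6% were called higher and 27.1% lower with shNdufa5_1 in PCM, and 28.7% and 31.1% in SCM. These shares were 19.3% and 16.3% in PCM and 13.9% and 20% in SCM with the label shNdufa5_2. They were 31.7% and 30.2% with SCM in shControl. The falls of the partners with shNdufa5_1 in SCM ranked 16th (Ndufs3), 17th (Ndufs7) and 32nd (Ndufs8) from the highest among these 30 and the 4 members, and Ndufa5 33rd, with only Ndufa12 lower. In PCM Ndufs3 ranked 7th, Ndufs7 13th, Ndufs8 26th and Ndufa5 last.

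By module, the N module, which holds the NADH site, had 1 higher, 9 lower and 1 uncalled of 11 with shNdufa5_1 in SCM (median -0.67). The nuclear-encoded membrane arm had 19 lower of 19 (median -0.62), where 28.7% of all genes tested were called higher and 31.1% lower. Ndufa7 of the N module differed by -0.96 (limma adjusted p = 1.02e-10) and Ndufb9 of the membrane arm by -0.95 (adjusted p = 8.98e-09), close to Ndufs8. Ndufa12 differed by -1.75 (SE 0.59, adjusted p = 0.0184), with an SE far above those of the members. In PCM, where 25.6% of all genes tested were called higher and 27.1% lower, the N module had 2 higher, 6 lower and 3 uncalled (median -0.30). The membrane arm had 11 lower and 8 uncalled of 19 (median -0.25). Ndufv3 of the N module stood at -0.55 (limma adjusted p = 1.48e-05) and Ndufs5 of the membrane arm at -0.53 (adjusted p = 1.96e-05). The 7 subunits encoded by mitochondrial DNA did not share this direction in PCM. Of them 5 were called higher and none lower, with mt-Nd1, which meets the Q module at the membrane, at 0.61 (limma adjusted p = 2.29e-08). In SCM 1 was called higher and 3 lower, with mt-Nd2 at -0.31 (adjusted p = 3.42e-05) and mt-Nd1 at 0.26 (adjusted p = 0.000117).

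**Figure D4:**
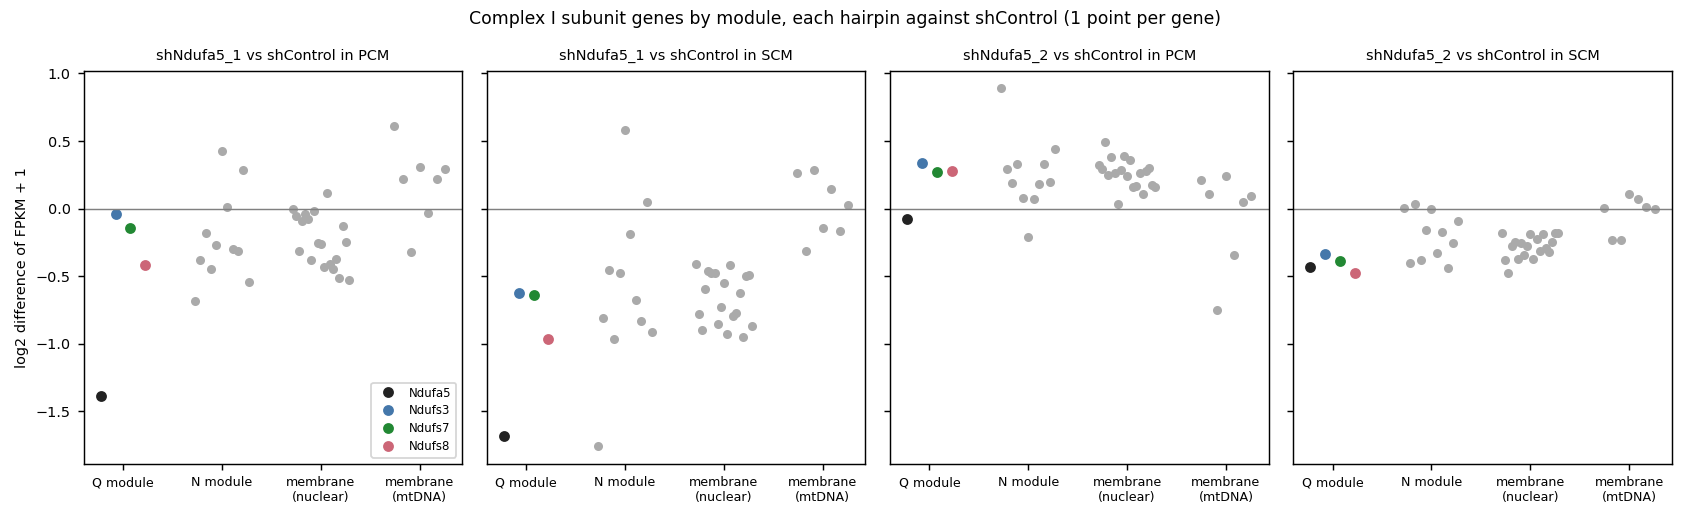
Difference of each hairpin from shControl on the log2(FPKM + 1) scale (vertical axis), 1 point per complex I subunit gene grouped by module, with the 4 members in colour and all others in grey. In the 2 panels of shNdufa5_1 Ndufa5 lies at -1.39 (PCM) and -1.68 (SCM), well under Ndufs3, Ndufs7 and Ndufs8, while in SCM the partners lie among the N module and nuclear-encoded membrane arm genes.

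Genes that serve the Q module were then counted, and the counts stand beside the shares of all genes tested. With shNdufa5_1 these shares were 25.6% higher and 27.1% lower in PCM and 28.7% and 31.1% in SCM, and with SCM in shControl 31.7% and 30.2%. Equal FPKM sums moved the median of all genes to 0.34 with shNdufa5_1 in SCM and to -0.50 with SCM in shControl, and list medians on that scale are read against these. Equal fragment totals moved it to 0.15 and -0.20. Of 8 assembly factors that act on it, 1 was called higher and 5 lower with shNdufa5_1 in SCM (median -0.26, and 0.11 with equal FPKM sums), led by Ndufaf6 (-0.53, limma adjusted p = 0.000763) and Ndufaf8 (-0.47, adjusted p = 0.00422). In PCM 1 was higher, Ndufaf7 (0.29, adjusted p = 0.0224), a methyltransferase, and 2 were lower, with Ndufaf6 at -0.30 (adjusted p = 0.0347). With SCM in shControl 5 of the 8 were called higher and 1 lower (median 0.31, and -0.16 with equal FPKM sums), led by Ndufaf8 (0.73, adjusted p = 0.000111) and Ndufaf6 (0.63, adjusted p = 0.000157). In the libraries labelled shNdufa5_2 Ndufaf3, which binds the early Q module, was at 0.40 in PCM (adjusted p = 0.0104) and -0.31 in SCM (adjusted p = 0.0422), the order of signs seen in the partners.

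Iron-sulfur cluster assembly supplies Ndufs7 and Ndufs8. Of 14 genes tested 1 was called higher and 8 lower with shNdufa5_1 in SCM (median -0.24, and 0.135 with equal FPKM sums), and 2 higher and 4 lower in PCM (median -0.20). The shares of all genes tested were 28.7% higher and 31.1% lower in SCM, and 25.6% and 27.1% in PCM. Bola3, a late factor of cluster delivery, differed by -0.86 in SCM (limma adjusted p = 1.15e-06), from 9.40 ± 0.958 to 4.71 ± 0.205 FPKM (n = 3). Iscu, the scaffold on which clusters form, differed by -0.55 in PCM (limma adjusted p = 3.21e-06). With SCM in shControl 4 of the 14 were called higher, 2 lower and 8 not, with a median of 0.04 (-0.51 with equal FPKM sums, -0.20 with equal fragment totals, -0.05 with quantile normalization). There 31.7% of all genes tested were called higher and 30.2% lower.

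Ubiquinone, the substrate of the module, is made by the Coq enzymes. Of 12 genes tested 1 was called higher and 5 lower with shNdufa5_1 in PCM (median -0.13), and likewise in SCM (median -0.17, and 0.20 with equal FPKM sums and 0.01 with equal fragment totals). The shares of all genes tested were 25.6% higher and 27.1% lower in PCM (52.7% in all), and 28.7% and 31.1% in SCM (59.8% in all). Coq9, a lipid-binding protein of this pathway, was at 29.95 ± 2.09 FPKM with shControl and 17.8 ± 0.227 with shNdufa5_1 in PCM (n = 3), a log2 difference of -0.72 (limma adjusted p = 6.88e-08), and at -0.48 in SCM (adjusted p = 3.97e-06). Of 11 genes of other enzymes that reduce ubiquinone 7 were called lower and none higher with shNdufa5_1 in PCM (median -0.25), and 5 lower and none higher in SCM (median -0.09, and 0.32 with equal FPKM sums and 0.095 with equal fragment totals). Sdhb, the iron-sulfur subunit of complex II, differed by -0.64 in SCM (limma adjusted p = 2.22e-09), close to Ndufs3 and Ndufs7.

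Across the libraries the partners resembled each other more than Ndufa5. Over 18 libraries, which share the 6 groups and their scaling, Pearson's r between Ndufs3 and Ndufs7 was 0.972, between Ndufs3 and Ndufs8 0.933 and between Ndufs7 and Ndufs8 0.928. Among 11083 other genes ordered by r, Ndufs3 came 5th for Ndufs7, and Ndufs7 came 13th for Ndufs3. With Ndufa5 r was 0.655 for Ndufs3, 0.699 for Ndufs7 and 0.763 for Ndufs8, at ranks 2210, 1908 and 1422 in its order. Without the 6 shNdufa5_1 libraries r with Ndufa5 was 0.47, 0.603 and 0.493 over 12 libraries. These lower values stood at higher places in its order, at ranks 1455, 542 and 1236. The 3 values among the partners were 0.951 to 0.975 over the 12, where Ndufs3 came 12th for Ndufs7 and Ndufs7 104th for Ndufs3.

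The genes most like each member were mostly others. For Ndufa5 these were Parl (r = 0.982), Gadd45b and Mettl1 (both 0.976), and over the 12 libraries without shNdufa5_1 Etfb (0.92), Stk19 (0.908) and Lsm7 (0.906). For Ndufs3 they were Slc25a39 (0.983), Rpsa-ps10 (0.979) and the ATP synthase gene Atp5d (0.978). For Ndufs7 they were Lsm4 (0.986), Pfn1 (0.978) and Dctpp1 (0.975), and for Ndufs8 Hcfc1r1 (0.989), the mitochondrial ribosomal gene Mrpl28 (0.987) and Eif3i (0.984). Lsm4 for Ndufs7, Rpsa-ps10 for Ndufs3 and Mrpl28 for Ndufs8 were again among the first 3 over the 12 libraries. Rpsa-ps10 is a pseudogene whose fragments cannot be told with certainty from those of its parent gene.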

How the data were processed

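The authors deposited FPKM values of 54532 Ensembl genes in 18 libraries. STAR 2.6.1, DESeq2 and GRCm38 (mm10) are named per the submitters' processing notes. The sources used here do not give the counter, the gene lengths or the FPKM denominator. Fragments per library were recovered from the steps of the low FPKM values with GENCODE M21 lengths (99.5 to 99.8% of values of at most 20 fragments whole within 0.1 for genes with 1 transcript, 96.6 to 97.9% for others). The denominator read from the same steps was not the fragment total. For shControl replicate 1 it was 15.9 M against 15.3 M fragments in PCM, and 13.4 M against 15.2 M in SCM. The deposited values are thus not scaled to equal fragment totals. Groups came from the labels.

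Values were tested as log2(FPKM + 1) with limma 3.58.1 in R 4.3.3 with data.table (version 1.17.8), using 1 coefficient per group, variances moderated with a trend, no replicate block, genes with a mean of at least 1 FPKM, and Benjamini-Hochberg adjustment within each of 12 contrasts. Exact permutation tests, ratios and figures used Python 3.11.15 with pandas 2.3.3, numpy 2.4.6 and matplotlib 3.10.9. On simulated data 83% of 200 genes changed by a log2 of 0.5 were recovered for shNdufa5_1 against shControl in SCM, and 65% for the interaction of shNdufa5_1. False calls among the unchanged genes were 8 and 4. Only 200 of 11084 genes were changed there, whereas 59.8% were called in the real comparison in SCM, so this recovery need not hold for the data.

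The members and lists were chosen with earlier results of these data known. Up to 2 called genes per list and contrast were eligible to be named, those with the largest difference, and for each member the 3 genes of highest r, passing over clone and model names. The motifs were chosen after the files were read. Alternatives were other pseudocounts (0.1 and 5) and filters (none, or 5 FPKM), equal FPKM sums, quantile normalization, removal of GC and length trends, variances without trend, only the groups compared, a replicate block and leaving out each library. Equal fragment totals was added after seeing the data. One other gene is not reported here.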

Additional observations from a re-analysis of the deposited data

Results flagged for a closer look

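The response of the partners to SCM differed between shControl and each hairpin by the interaction test of the same limma fit, with 3 libraries per group. With shNdufa5_1 the response minus that of shControl was -0.59 for Ndufs3, -0.50 for Ndufs7 and -0.54 for Ndufs8 on the log2(FPKM + 1) scale. Of all genes tested 10.7% were called higher and 15.5% lower there (26.2% in all). In the libraries labelled shNdufa5_2 that difference was -0.67 for Ndufs3, -0.66 for Ndufs7 and -0.75 for Ndufs8. Here 18.9% of all genes tested were called higher and 24.1% lower (43% in all). In these libraries Ndufa5 kept 93.4% of its control level in PCM and 73.4% in SCM. The 2 sets of differences share the shControl libraries. With quantile normalization the values with shNdufa5_1 were -0.26 for Ndufs7 and -0.19 for Ndufs8, not called. With equal FPKM sums none of the 6 was called, where the median of all genes moved to 0.46 (shNdufa5_1) and 0.52 (shNdufa5_2). With shControl Gm23935 took 16.3 to 21.8% of the FPKM sum in SCM and 5.13 to 8.75% in PCM, and its part in these differences was not tested.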

How the results depend on the processing

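All values here are log2 differences. The fall of Ndufa5 with shNdufa5_1 in both media, the fall of the 3 partners with shNdufa5_1 in SCM, the fall of Ndufs8 with shNdufa5_1 in PCM and the rise of Ndufs8 with SCM in shControl kept their direction and call under every alternative run. Of 528 member values under alternatives that kept all libraries, 470 kept direction and call, 41 lost the call, 3 gained it and 14 changed sign. The replicate numbers did not pair the libraries (same-number correlations of deviations -0.093 to 0.065, and 8 of 18 libraries most like their own number). The fit with a replicate block changed no member's call (Ndufa5 with SCM in shControl stood at 0.297) and moved no count of calls by over 1.5 times. Except where stated, the cause of a change was not tested.

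With equal FPKM sums, the scaling that Gm23935 enters and that moves the median of all genes, no value given here was called unless stated. There SCM in shControl gave Ndufa5 -0.285 (called lower), Ndufs3 0.133 and Ndufs7 0.111. The median of all genes was -0.499 in that comparison, with 7805 called lower and 488 higher. SCM gave Ndufs3 0.089 and Ndufs7 0.155 with shNdufa5_1, and Ndufs8 0.234 with shNdufa5_2. In PCM Ndufs3 (-0.167) and Ndufs7 (-0.271) were called lower with shNdufa5_1, where the median of all genes was -0.118. Of 11084 genes, 3673 were called lower there and 1403 higher. With shNdufa5_2 in PCM Ndufa5 was called lower (-0.42) while Ndufs3, Ndufs7 and Ndufs8 stood at -0.008, -0.08 and -0.08. In that comparison 6315 genes were called lower and 139 higher, and Ndufa5 stood at -0.121 relative to a median of -0.299. In SCM the values with shNdufa5_2 were -0.15, -0.043, -0.097 and -0.182 (Ndufa5, Ndufs3, Ndufs7, Ndufs8), and Ndufs7 differed by 0.13 between the hairpins. The interactions, in the same order, were 0.235, -0.044, 0.044 and 0.007 for shNdufa5_1, 0.27, -0.034, -0.017 and -0.102 for shNdufa5_2, and 0.252, -0.039, 0.014 and -0.047 averaged. The median of all genes was 0.458 for shNdufa5_1, 0.519 for shNdufa5_2 and 0.499 averaged. Counts of calls were 925 against 2532 for SCM with shNdufa5_2, 6454 against 3947 for shNdufa5_2 in PCM, and 7073 against 2900, 7430 against 4768 and 8058 against 4280 for the interactions of shNdufa5_1, shNdufa5_2 and both.

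None of the member values in this paragraph was called. Equal fragment totals gave Ndufa5 0.058 with SCM in shControl, Ndufs3 0.097 and Ndufs7 0.163 with SCM and shNdufa5_1, and Ndufs7 -0.004 and Ndufs8 0.134 with SCM and shNdufa5_2. Quantile normalization gave Ndufa5 0.195 with SCM in shControl, Ndufa5 0.016 and Ndufs3 0.11 with SCM and shNdufa5_1, Ndufs8 0.151 with SCM and shNdufa5_2, Ndufs7 0.179 and Ndufs8 0.133 for shNdufa5_2 in PCM, and interactions with shNdufa5_1 of -0.264 for Ndufs7 and -0.187 for Ndufs8. Removing GC and length trends gave Ndufa5 0.066 with SCM in shControl, Ndufs3 0.002 and Ndufs7 -0.001 with SCM and shNdufa5_1, Ndufs8 0.16 with SCM and shNdufa5_2, Ndufs3 0.095 for shNdufa5_1 in PCM, and Ndufs7 0.086 and Ndufs8 0.094 for shNdufa5_2 in PCM. Between the hairpins it gave Ndufs7 0.087 in PCM and 0.1 in SCM, and it called 2955 genes against 4768 for the interaction of shNdufa5_2. Ndufa5 with SCM in shControl stayed at 0.297 but lost its call without a filter, without a variance trend and with only the groups compared. With shNdufa5_1 Ndufs3 (0.144) and Ndufs7 (0.21) lost theirs without a filter and with only the groups compared.

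Leaving out 1 library at a time gave, for Ndufa5, 0.161 to 0.417 with SCM in shControl, -0.028 to 0.034 with shNdufa5_1, and -0.18 to 0.042 with shNdufa5_2. It gave -0.216 to 0.04 for Ndufa5 with shNdufa5_2 in PCM and -0.557 to -0.334 in SCM, and interactions of -0.477 to -0.215 (shNdufa5_2) and -0.444 to -0.188 (averaged). For SCM with shNdufa5_1 Ndufs3 ranged from 0.097 to 0.183 and Ndufs7 from 0.158 to 0.283, and for shNdufa5_1 in PCM from -0.078 to 0.008 and -0.215 to -0.077. Ndufs8 ranged from 0.164 to 0.207 for SCM with shNdufa5_2. The lowest member value rests on 104 fragments, so counting error weighs most on Ndufa5.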
